A study of Mus musculus with 3 samples.

Results

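Egr1, Egr2, Egr3, Nr4a1, Nr4a2 and Nr4a3, transcription factors whose genes are switched on within minutes of a stimulus, were examined with the Egr corepressors Nab1 and Nab2, the serum response factor Srf and the growth factor-responsive gene Myc. These 10 genes were taken by symbol from the 55536 annotated genes listed, of which 22028 are protein-coding. The RNA came from the cytosolic fraction of C57BL/6J mouse macrophages cultured from bone marrow (BMDM), after 50 min with 100 ng/ml of lipid A, the part of bacterial lipopolysaccharide that Toll-like receptor 4 recognises. It was sequenced as total RNA after ribosomal RNA depletion in 3 libraries, biological replicates 1 to 3 of this 1 group, called libraries 1, 2 and 3. The labels give all of them the same donor, so the p-values speak of the spread between these libraries alone, and that spread may be technical. No unstimulated sample was analysed here, and no value is a response to lipid A.

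Egr proteins are zinc finger factors that bind GC-rich sites, and Nab1 and Nab2 dock on Egr proteins and repress their activity. Nr4a proteins are orphan nuclear receptors that act without a known endogenous ligand and bind DNA as monomers or dimers, some of them also with retinoid X receptors. Many immediate early genes are driven by Srf with ternary complex factors of the Elk family under ERK signalling, by CREB proteins, or by both, and Egr and Nr4a genes are widely used as markers of macrophage activation.

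Libraries held 33044910, 36769402 and 36522216 expected counts on genes, an expected count being an estimated number of reads. Levels are given in TPM (a length-corrected share of all RNA listed, scaled to a sum of 1000000) as the mean ± SD over the 3 libraries (n = 3). Protein-coding genes took 38.3%, 26.6% and 34.8% of TPM in libraries 1, 2 and 3, so the SD of a TPM value includes a shift common to all genes. The 10 macrophage markers examined were all at 1 TPM or more in each library, with a median of 164 TPM, and the medians of marker lists for the other 8 cell types lay between 0.00333 and 0.240 TPM. Among those markers Pf4 stood at 223 ± 17.8 TPM, Vwf at 13.2 ± 4.39 TPM and Ngp at 4.62 ± 2.39 TPM. In such bulk RNA, fewer cells that express a gene and less RNA per cell cannot be told apart.

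All 10 genes reached 1 TPM in each library, which 9128 of the 22028 protein-coding genes (41.4%) did. Their levels spanned more than 2 orders of magnitude, from Egr1 at 385 ± 98.6 TPM to Nr4a2 at 1.93 ± 0.918 TPM. The median of the 10 was 16.0 TPM, beside 9.39 TPM for the protein-coding genes that reached 1 TPM. From high to low the order was Egr1, Nr4a1, Egr2, Nab1, Egr3, Myc, Nab2, Srf, Nr4a3 and Nr4a2. Neighbours in this order were set against each other by the log2 ratio of their TPM within each library, which does not depend on the common shift, and 7 of the 9 neighbouring pairs had a ratio of 1 sign in all 3 libraries with a mean above its SD. The other pairs were Nab1 over Egr3, with a log2 ratio of 0.06 ± 0.44, and Nab2 over Srf, with 0.32 ± 0.38, each positive in 2 of 3 libraries. An exact sign-flip test of 3 libraries cannot give a p below 0.25, so these ratios are descriptions.

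**Figure D1:**
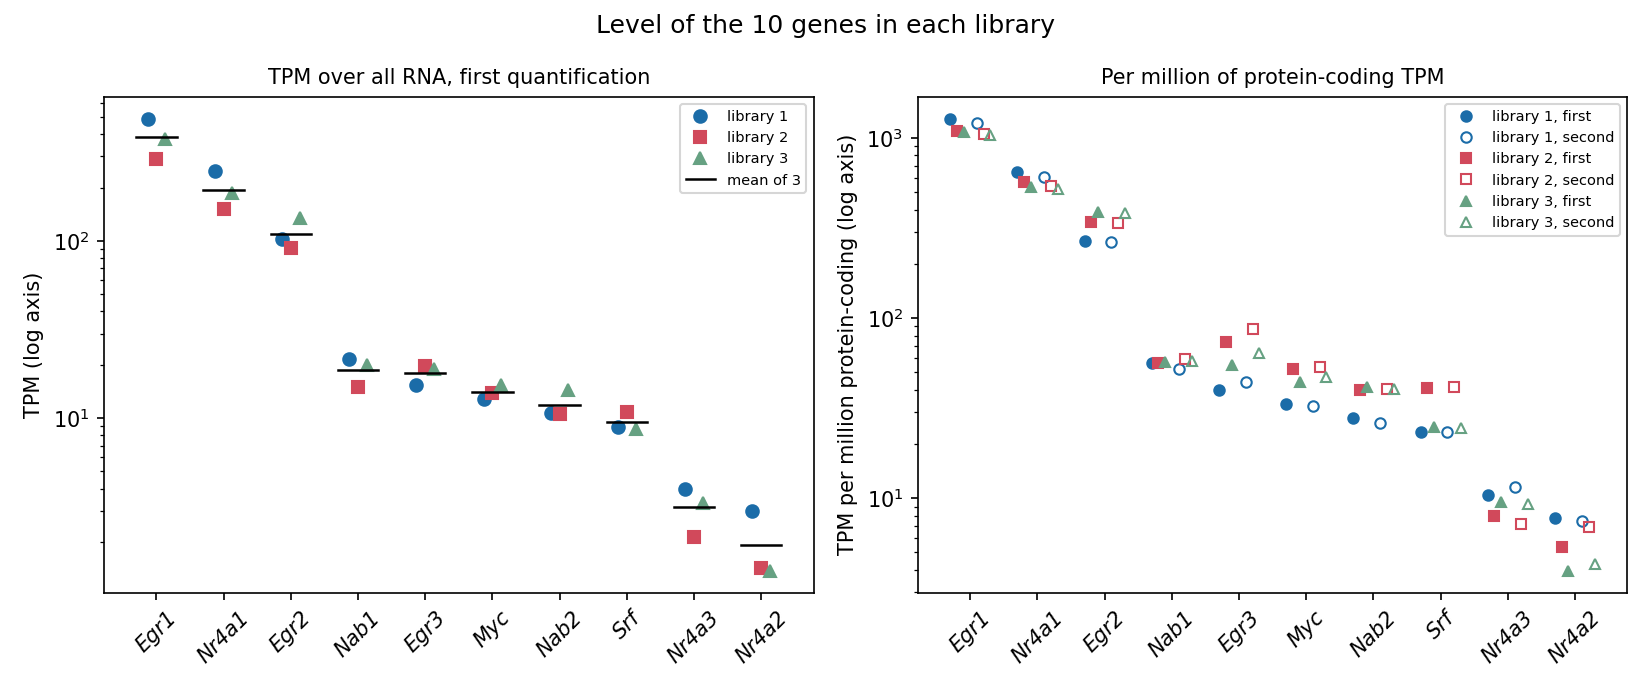
Level of the 10 genes on log axes, 1 point per library. On the left is TPM in the first of the 2 deposited quantifications with the mean as a line, and on the right TPM rescaled to a sum of 1000000 over protein-coding genes for the first (filled) and second (open) quantification. Egr1, Nr4a1 and Egr2 stand above the other 7 genes in every library, and rescaling brings the 2 quantifications close together.

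Egr1, a zinc finger activator of growth and inflammatory genes (ENSMUSG00000038418.7, mm10 chromosome 18, 34859823 to 34864984, plus strand), stood at 487.66, 291.11 and 375.18 TPM in libraries 1, 2 and 3. It ranked 120 among protein-coding genes by mean TPM and 46 by mean expected count, with 60845, 54475 and 55995 counts. It was the highest of the 10 genes in every library and took 74.6% ± 5.21 of the TPM summed over Egr1 to Egr4. With TPM rescaled to sum to 1000000 over protein-coding genes, Egr1 stood at 1149 ± 107, and at 1099.7 ± 89.4 in the second quantification.

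Egr2, needed for myelination and also induced in activated macrophages (ENSMUSG00000037868.15, chromosome 10, 67535475 to 67542188, plus strand), stood at 102.34, 91.28 and 135.01 TPM, with 11758, 15650 and 18347 counts. Its mean of 109.5 ± 22.7 TPM ranked 480. The ratio of Egr1 to Egr2 was 4.77, 3.19 and 2.78 in libraries 1, 2 and 3, so that Egr1 led in all of them but by an unequal factor. Egr3, a family member known from lymphocytes and muscle spindles (ENSMUSG00000033730.4, chromosome 14, 70077203 to 70082614, plus strand), stood at 15.3, 19.57 and 19.05 TPM, and Egr1 exceeded it 31.9-, 14.9- and 19.7-fold. Egr4, the remaining family member, stood at 0.367 ± 0.0306 TPM and made up 0.0737% of the family's TPM. Wt1, a zinc finger factor with a related binding site, had 0 counts in every library, where 3 counts, the limit that a count of 0 allows, is 0.0908, 0.0816 and 0.0821 counts per 1000000 (counting error only).

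The corepressors lay far below Egr1 and Egr2 and near Egr3 in level. Nab1 (ENSMUSG00000002881.14, chromosome 1, 52457294 to 52500679, minus strand) stood at 21.49, 15.0 and 19.84 TPM, and Nab2 (ENSMUSG00000025402.12, chromosome 10, 127660918 to 127668568, minus strand) at 10.7, 10.6 and 14.4 TPM. The TPM of Egr1, Egr2 and Egr3 together exceeded that of Nab1 and Nab2 together by 18.8-, 15.7- and 15.5-fold. Nab1 was the higher of the pair in all 3 libraries, by 2.01-, 1.42- and 1.38-fold. Nab2 overlaps 3 genes of the opposite strand: Stat6 at 42.8 ± 8.53 TPM by 40 bases, Nemp1 at 1.78 ± 0.494 TPM by 1668 bases and the antisense gene Gm16229 with 0, 0 and 2 counts by 1646 bases. The strand setting of the counting is not given in the sources used here, so reads in these overlaps cannot be told apart and the level of Nab2 is uncertain to that extent.

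The Nab1 promoter is shown because it holds the consensus Egr site GCGTGGGCG more than once. The window runs from 250 bases before to 50 bases after the start that RefSeq gives on GRCm38.p6 (chr1:52500399-52500698, minus strand), and capitals mark every match to the motifs searched.
Nab1: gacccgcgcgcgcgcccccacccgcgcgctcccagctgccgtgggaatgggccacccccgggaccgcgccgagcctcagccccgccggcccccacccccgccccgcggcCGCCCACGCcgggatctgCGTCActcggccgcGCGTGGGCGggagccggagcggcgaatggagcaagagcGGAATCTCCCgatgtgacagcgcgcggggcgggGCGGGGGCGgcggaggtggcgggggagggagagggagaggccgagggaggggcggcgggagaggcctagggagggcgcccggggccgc
Its matches were GCGTGGGCG at 141 and 109 bases before the start, the variant GCGGGGGCG at 38 bases before it, the CRE half-site TGACG at 123 bases before it and an NF-kB site at 71 bases before it, each counted at its leftmost base and found on either strand. Of 32851 RefSeq windows of this length, 0.612% held GCGTGGGCG at all and 7 windows (0.0213%) held it at least 2 times. Among windows of genes that reached 1 TPM in every library these shares were 1.27% and 0.0427%. The start used here lies 231 bases from that of Nab1-201, the highest Nab1 transcript, and 133 bases from the nearest annotated one, Nab1-203.

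Of the nuclear receptors, Nr4a1 stood far above the others. Nr4a1, also called Nur77, which restrains inflammatory macrophages in mice (ENSMUSG00000023034.7, chromosome 15, 101254269 to 101274795, plus strand), stood at 247.56, 151.01 and 186.06 TPM, with 23270, 21255 and 20723 counts, and its mean ranked 266. It took 97.5% ± 0.225 of the TPM summed over the 3 receptors. Nr4a3, or Nor1 (ENSMUSG00000028341.9, chromosome 4, 48045153 to 48086447, plus strand), stood at 3.99, 2.13 and 3.33 TPM. Nr4a2, or Nurr1, the factor of midbrain dopamine neurons (ENSMUSG00000026826.13, chromosome 2, 57106830 to 57124003, minus strand), stood at 2.99, 1.42 and 1.38 TPM, with 388, 281 and 227 counts. Nr4a1 exceeded Nr4a3 by 62.0-, 70.9- and 55.9-fold and Nr4a2 by 82.8-, 106- and 135-fold. Nr4a3 was above Nr4a2 in all 3 libraries, with a log2 ratio of 0.76 ± 0.45. In the second quantification the mean of Nr4a2 was 0.781 ± 0.497 TPM and that of Nr4a3 1.16 ± 0.757 TPM, and neither reached 1 TPM in every library. Protein-coding genes took only 17.6%, 9.84% and 7.91% of TPM there in libraries 1, 2 and 3, so 1 TPM was a stricter limit. With TPM rescaled to protein-coding genes, Nr4a2 stood at 5.70 ± 1.94 in the first quantification and 6.24 ± 1.72 in the second. Nr4a3 stood at 9.33 ± 1.22 and 9.34 ± 2.16.

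Egr1 and Nr4a1, the genes of 2 unrelated protein families at the top of the order, kept nearly the same ratio in every library. Egr1 exceeded Nr4a1 by 1.97-, 1.93- and 2.02-fold, a log2 ratio of 0.98 ± 0.03, and the second quantification gave 0.99 ± 0.03. Both genes were highest in library 1.

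The promoter windows of the 3 Nr4a genes are shown together because each holds the CRE half-site TGACG, which CREB and ATF proteins can bind, 4 times. They are RefSeq windows of the same kind on GRCm38.p6: Nr4a1 at chr15:101266596-101266895 (plus strand), Nr4a2 at chr2:57123954-57124253 (minus strand) and Nr4a3 at chr4:48045055-48045354 (plus strand).
Nr4a1: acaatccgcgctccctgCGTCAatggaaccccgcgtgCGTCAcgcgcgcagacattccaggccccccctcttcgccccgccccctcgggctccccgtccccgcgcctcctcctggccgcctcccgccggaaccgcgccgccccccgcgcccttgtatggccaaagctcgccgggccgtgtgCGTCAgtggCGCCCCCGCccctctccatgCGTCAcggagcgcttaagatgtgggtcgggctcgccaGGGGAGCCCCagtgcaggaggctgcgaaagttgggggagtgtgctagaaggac
Nr4a2: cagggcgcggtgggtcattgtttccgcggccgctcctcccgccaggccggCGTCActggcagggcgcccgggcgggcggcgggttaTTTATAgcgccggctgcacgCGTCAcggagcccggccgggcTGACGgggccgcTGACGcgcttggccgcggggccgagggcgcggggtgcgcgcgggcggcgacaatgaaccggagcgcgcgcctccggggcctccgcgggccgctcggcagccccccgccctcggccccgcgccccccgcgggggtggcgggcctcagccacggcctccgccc
Nr4a3: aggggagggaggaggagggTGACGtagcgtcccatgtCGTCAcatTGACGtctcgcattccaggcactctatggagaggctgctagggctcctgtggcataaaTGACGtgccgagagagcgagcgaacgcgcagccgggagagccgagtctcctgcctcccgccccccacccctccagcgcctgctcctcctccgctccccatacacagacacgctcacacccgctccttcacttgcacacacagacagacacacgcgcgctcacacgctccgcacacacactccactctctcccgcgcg
Matches on the opposite strand appear as CGTCA. The half-site was found in 20.8% of the 32851 windows and at least 4 times in 76 of them, 0.231%. Among windows of genes that reached 1 TPM in every library the shares were 32.8% and 0.629%. The 3 windows hold 72.3%, 81.7% and 64.7% G or C, and the median over all windows is 52.7%. The start used for Nr4a1 is that of Nr4a1-201, its highest transcript, and the window also holds GCGGGGGCG 60 bases before the start and an NF-kB site across it. The starts used for Nr4a2 and Nr4a3 lie 8965 and 3809 bases from the start of the highest transcript of their gene, and 0 and 74 bases from that of Nr4a2-203 and Nr4a3-204. The full palindrome TGACGTCA, which contains the half-site, was not in any of the 7 windows, nor was the Nr4a site AAAGGTCA.

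Srf, the factor that binds the serum response element (ENSMUSG00000015605.6, chromosome 17, 46548329 to 46556175, minus strand), stood at 8.96, 10.84 and 8.7 TPM, with 878, 1534 and 971 counts. It was highest in library 2 and near equal in the others. Egr1 exceeded Srf by 54.4-, 26.9- and 43.1-fold. Srf lies within Gm26904, a gene of the opposite strand with 0, 3 and 0 counts. Myc, a basic helix-loop-helix activator of growth genes (ENSMUSG00000022346.15, chromosome 15, 61985391 to 61990374, plus strand), stood at 12.8, 13.82 and 15.37 TPM, a mean of 14.0 ± 1.29 TPM between those of Egr3 and Nab2.

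The windows of Egr2 and Srf are shown because they hold the CArG box, the site to which Srf binds. Egr2 lies at chr10:67537619-67537918 (plus strand) and Srf at chr17:46556113-46556412 (minus strand), on the same build.
Egr2: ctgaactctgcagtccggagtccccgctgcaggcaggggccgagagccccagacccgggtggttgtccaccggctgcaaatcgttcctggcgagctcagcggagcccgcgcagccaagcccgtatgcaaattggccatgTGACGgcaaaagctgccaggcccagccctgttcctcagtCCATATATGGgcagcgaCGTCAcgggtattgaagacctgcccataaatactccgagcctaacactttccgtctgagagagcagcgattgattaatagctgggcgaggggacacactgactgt
Srf: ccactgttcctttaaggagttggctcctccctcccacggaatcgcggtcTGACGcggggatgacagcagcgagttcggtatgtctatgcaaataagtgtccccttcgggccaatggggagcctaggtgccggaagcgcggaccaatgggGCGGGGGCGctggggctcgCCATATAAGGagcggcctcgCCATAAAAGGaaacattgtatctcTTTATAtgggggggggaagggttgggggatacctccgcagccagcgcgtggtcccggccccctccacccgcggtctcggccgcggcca
Egr2 has 1 CArG box, CCATATATGG, 72 bases before the start, between a TGACG at 111 and a second at 55 bases before it. Srf has 2, CCATATAAGG at 82 and CCATAAAAGG at 62 bases before the start, with 1 match each of GCGGGGGCG and TGACG farther upstream. Its match to TATAAA, 38 bases before the start, is on the opposite strand and appears as TTTATA. A CArG box was found in 1.63% of the 32851 windows and in 1.22% of those of genes at 1 TPM or more, and 6 windows (0.0183%, or 0.0213% of those of genes at 1 TPM or more) held at least 2. The start of the Egr2 window is that of Egr2-201, and that of the Srf window lies 13 bases from the start of Srf-201.

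No window of Egr1, Egr3 or Myc was used here. Over the 7 windows, TGACG was in 6 and the CArG box in 2, and Nab2 held no match at all. GCGGGGGCG was in Nab1, Nr4a1 and Srf, beside 2.91% of all windows and 5.48% of those of genes that reached 1 TPM. The NF-kB site was in Nab1 and Nr4a1, beside 8.46% and 10.5%. TATAAA was in Nr4a2 and Srf, in both on the strand opposite to the gene, beside 13.6% and 6.67% on either strand. The E-box CACGTG and the Ets site CCGGAAGT were in none of the 7. A match describes letters only, and a missing match says only that these letters are not in this window. The motifs singled out were chosen after the matches were seen.

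**Figure D2:**
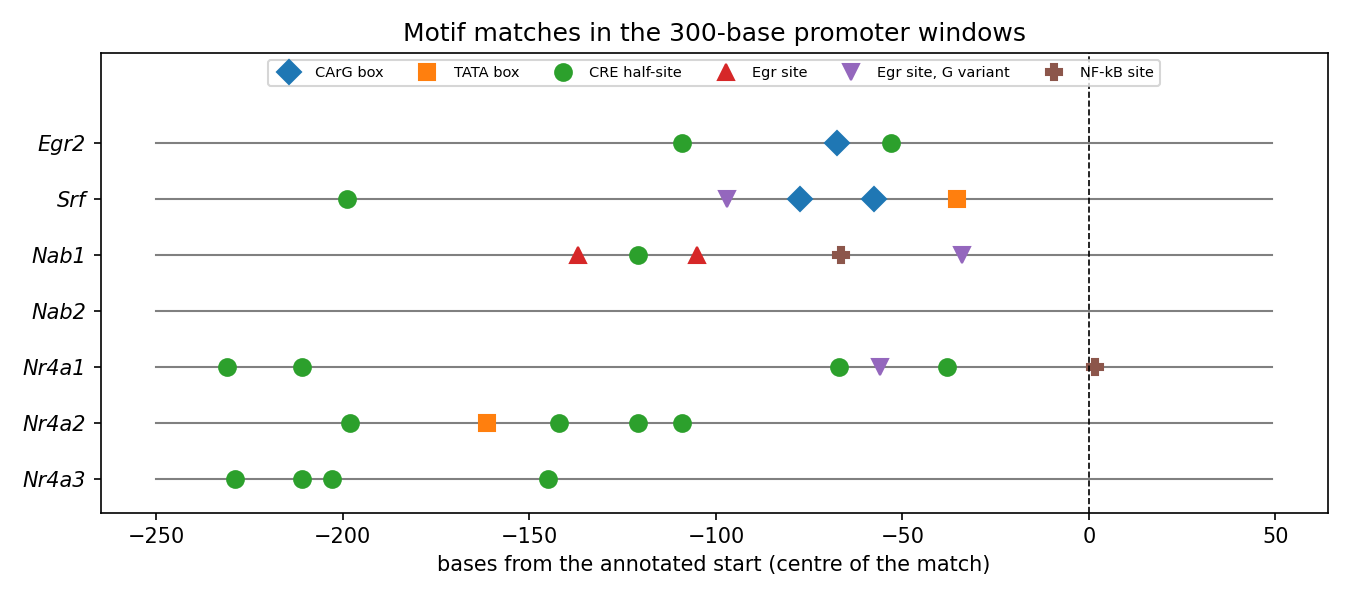
Position of each motif match, by its centre, in the 300-base windows of the 7 genes, in bases from the annotated start (dashed line), on either strand. Nr4a1, Nr4a2 and Nr4a3 have 4 CRE half-sites each, Srf has 2 CArG boxes and Egr2 has 1, and the line of Nab2 is empty.

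Variation between libraries was tested for all genes at once with edgeR's goodness-of-fit test, which asks whether the counts of a gene spread more than those of genes at its level. With Benjamini-Hochberg adjustment it called 203 of 12231 genes (1.66%), and 0 of the 10 genes here. At an unadjusted p under 0.05 it marked 785 genes (6.42%) and 3 of the 10: Srf, Egr3 and Nr4a2. The median SD of log2 CPM (counts per 1000000, scaled between libraries) was 0.24 for the 10 genes and 0.15 for all genes tested.

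Srf was at 4.72, 5.42 and 4.71 log2 CPM in libraries 1, 2 and 3 (edgeR goodness of fit, Benjamini-Hochberg adjusted p = 0.0846). Only library 2 was high, 1.64-fold above the lowest. Without library 1, Srf was called, with an adjusted p of 0.0213 by the same edgeR test, and it was not called without library 2 or without library 3. Egr3 was at 6.13, 6.89 and 6.46 log2 CPM (edgeR goodness of fit, adjusted p = 0.164), so library 1 was the lowest and library 2 the highest. Nr4a2 was at 3.55, 2.97 and 2.62 log2 CPM (edgeR goodness of fit, adjusted p = 0.494), with library 1 the highest, and its SD of 0.47 was the largest of the 10. Nab1 had the smallest, with 6.61, 6.57 and 6.56 log2 CPM.

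Library 2 also stood apart in RNAs known to stay in the nucleus, a list added after the data were seen. Malat1 was at 11.06, 12.35 and 10.07 log2 CPM, and the 7 RNAs of the list summed to 2433, 5834 and 1361 CPM. All 5 of them that were tested were called by the edgeR test, beside 1.66% of all genes, and were highest in library 2. Meg3 had 1, 0 and 0 counts, and Tsix was at 0 counts in every library. The part of nuclear RNA in the values of Srf and Egr3 was not tested.

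The genes fell to both sides of library 1. Egr1, Nr4a1, Nr4a3 and Nr4a2 were highest in library 1, by 0.28, 0.33, 0.43 and 0.93 log2 CPM over their lowest library. Egr2, Egr3, Nab2 and Myc were lowest there, by 0.48, 0.76, 0.48 and 0.49 below their highest. These positions of library 1 were the same in the second quantification and on the scale of protein-coding genes. Nab1 spanned 0.05, and which library was highest changed with the scale. None of them was called by the edgeR test over the 3 libraries, so the split is a description of 3 libraries.

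**Figure D3:**
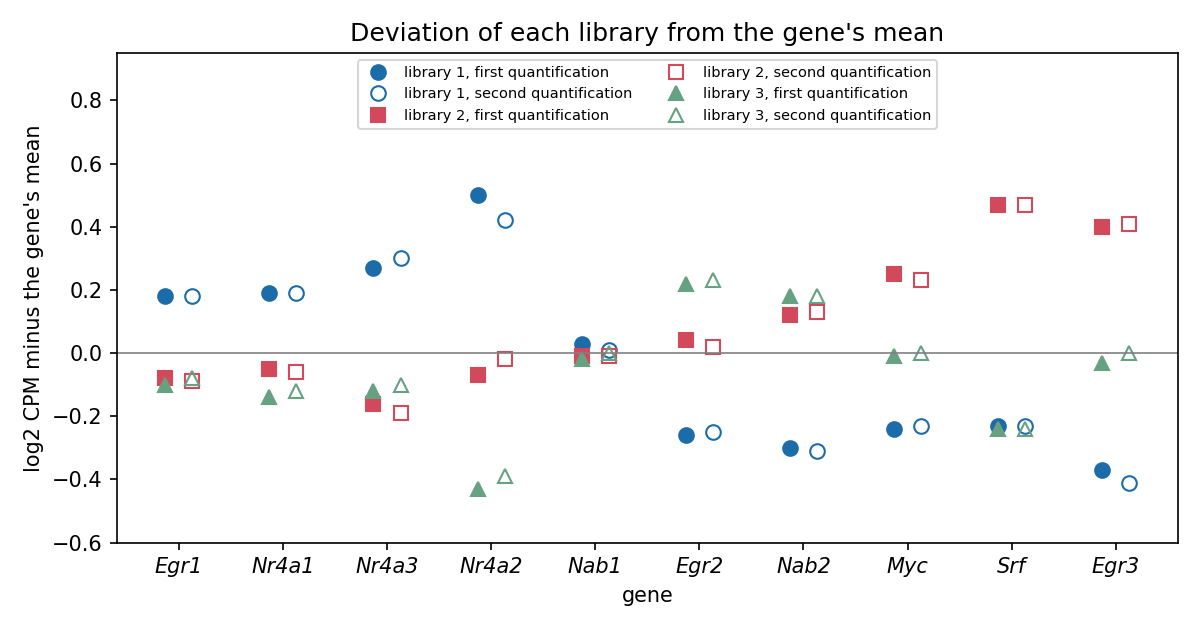
Deviation of each library from the gene's mean log2 CPM, for the first (filled) and second (open) quantification. Library 1 (circles) lies above the other libraries for Egr1, Nr4a1, Nr4a3 and Nr4a2 and below them for Egr2, Nab2, Myc and Egr3, and library 2 (squares) is the highest for Srf, Egr3 and Myc.

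Among 2919 other tested genes within 1 log2 unit of its level, those with the deviations nearest to Nr4a2 over the 3 libraries were Cox20 (Euclidean distance 0.0548), Hist2h2aa1 (0.0861) and Gm26527 (0.0897). Cox20, an assembly factor of cytochrome c oxidase, was at 2.96, 2.46 and 2.08 log2 CPM. With 3 points per gene such a likeness is a description only.

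Nr4a1, Srf, Egr1 and Egr2 had the largest shares in a single transcript. Nr4a1-201 held 98.1% ± 0.219 of the TPM of Nr4a1, Srf-201 93.7% ± 1.63, Egr1-202 90.0% ± 1.87 and Egr2-201 89.0% ± 1.43. In the second quantification these shares were 97.2%, 90.8%, 88.3% and 89.6%. Egr1-202, of 3036 bases, is the shorter of the 2 annotated Egr1 transcripts, and Egr1-201, of 4484 bases, held the rest. Nr4a2-201 held 77.7% ± 4.02, and 72.3% ± 16.1 in the second quantification.

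Egr3 was divided. Its coding transcript Egr3-204 held 81.0%, 53.8% and 59.5% of its TPM in libraries 1, 2 and 3, and Egr3-202, annotated as a retained intron, held 13.3%, 35.2% and 30.1%. Library 1, where Egr3 was lowest, thus had the smallest share of the retained intron form, and in the second quantification the shares were 8.75%, 20.2% and 18.2%, with library 1 again the lowest. Egr3-204 had 1960.5, 2479 and 2103 expected counts and Egr3-202 had 316, 1595 and 1046. These counts are not scaled for depth, and library 1 was the shallowest. In TPM, which includes the common shift, Egr3-204 stood at 12.4, 10.53 and 11.34, highest in library 1. Egr3-202 stood at 2.03, 6.89 and 5.74 TPM, so it spread more widely and was lowest in library 1 on both measures. Egr3-201, a shorter coding form, held 9.00% ± 2.89 in the first quantification and 29.2% ± 1.74 in the second. The retained intron transcripts of Srf, Srf-203 and Srf-204, held 4.46%, 1.29% and 0% of its TPM in libraries 1, 2 and 3. These shares rest on 3.98, 0 and 0 expected counts for Srf-203 and 2.70, 3.25 and 0 for Srf-204, too few to order the libraries. Nr4a1-204 held 0.139% ± 0.0869 and Nab1-202 held 0.504% ± 0.873.

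Nab1 was shared by Nab1-201 (59.8%, 76.2% and 75.4%) and Nab1-205 (40.2%, 23.0% and 23.1%), and library 1 stood apart from the others although the level of the gene did not. The second quantification gave Nab1-205 37.7% in library 1 and 16.3% in library 3. Nab2 was split almost evenly between Nab2-201 (50.2% ± 5.81) and Nab2-202 (48.5% ± 6.11), and the second quantification gave 59.9% and 36.8%. For Nr4a3 the leading transcript depended on the quantification: Nr4a3-203 held 51.9% ± 5.77 and Nr4a3-201 34.5% ± 12.0 in the first, and 31.2% ± 5.34 and 48.6% ± 14.8 in the second, while the noncoding Nr4a3-204 held 13.7% and 12.9%. Myc-201 and Myc-205 have the same sequence of 2338 bases, so their equal shares of 31.6% only divide the same reads. Myc-202 held 24.4% in the first quantification and 10.2% in the second, and Myc-206 held 0% and 10.4%.

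**Figure D4:**
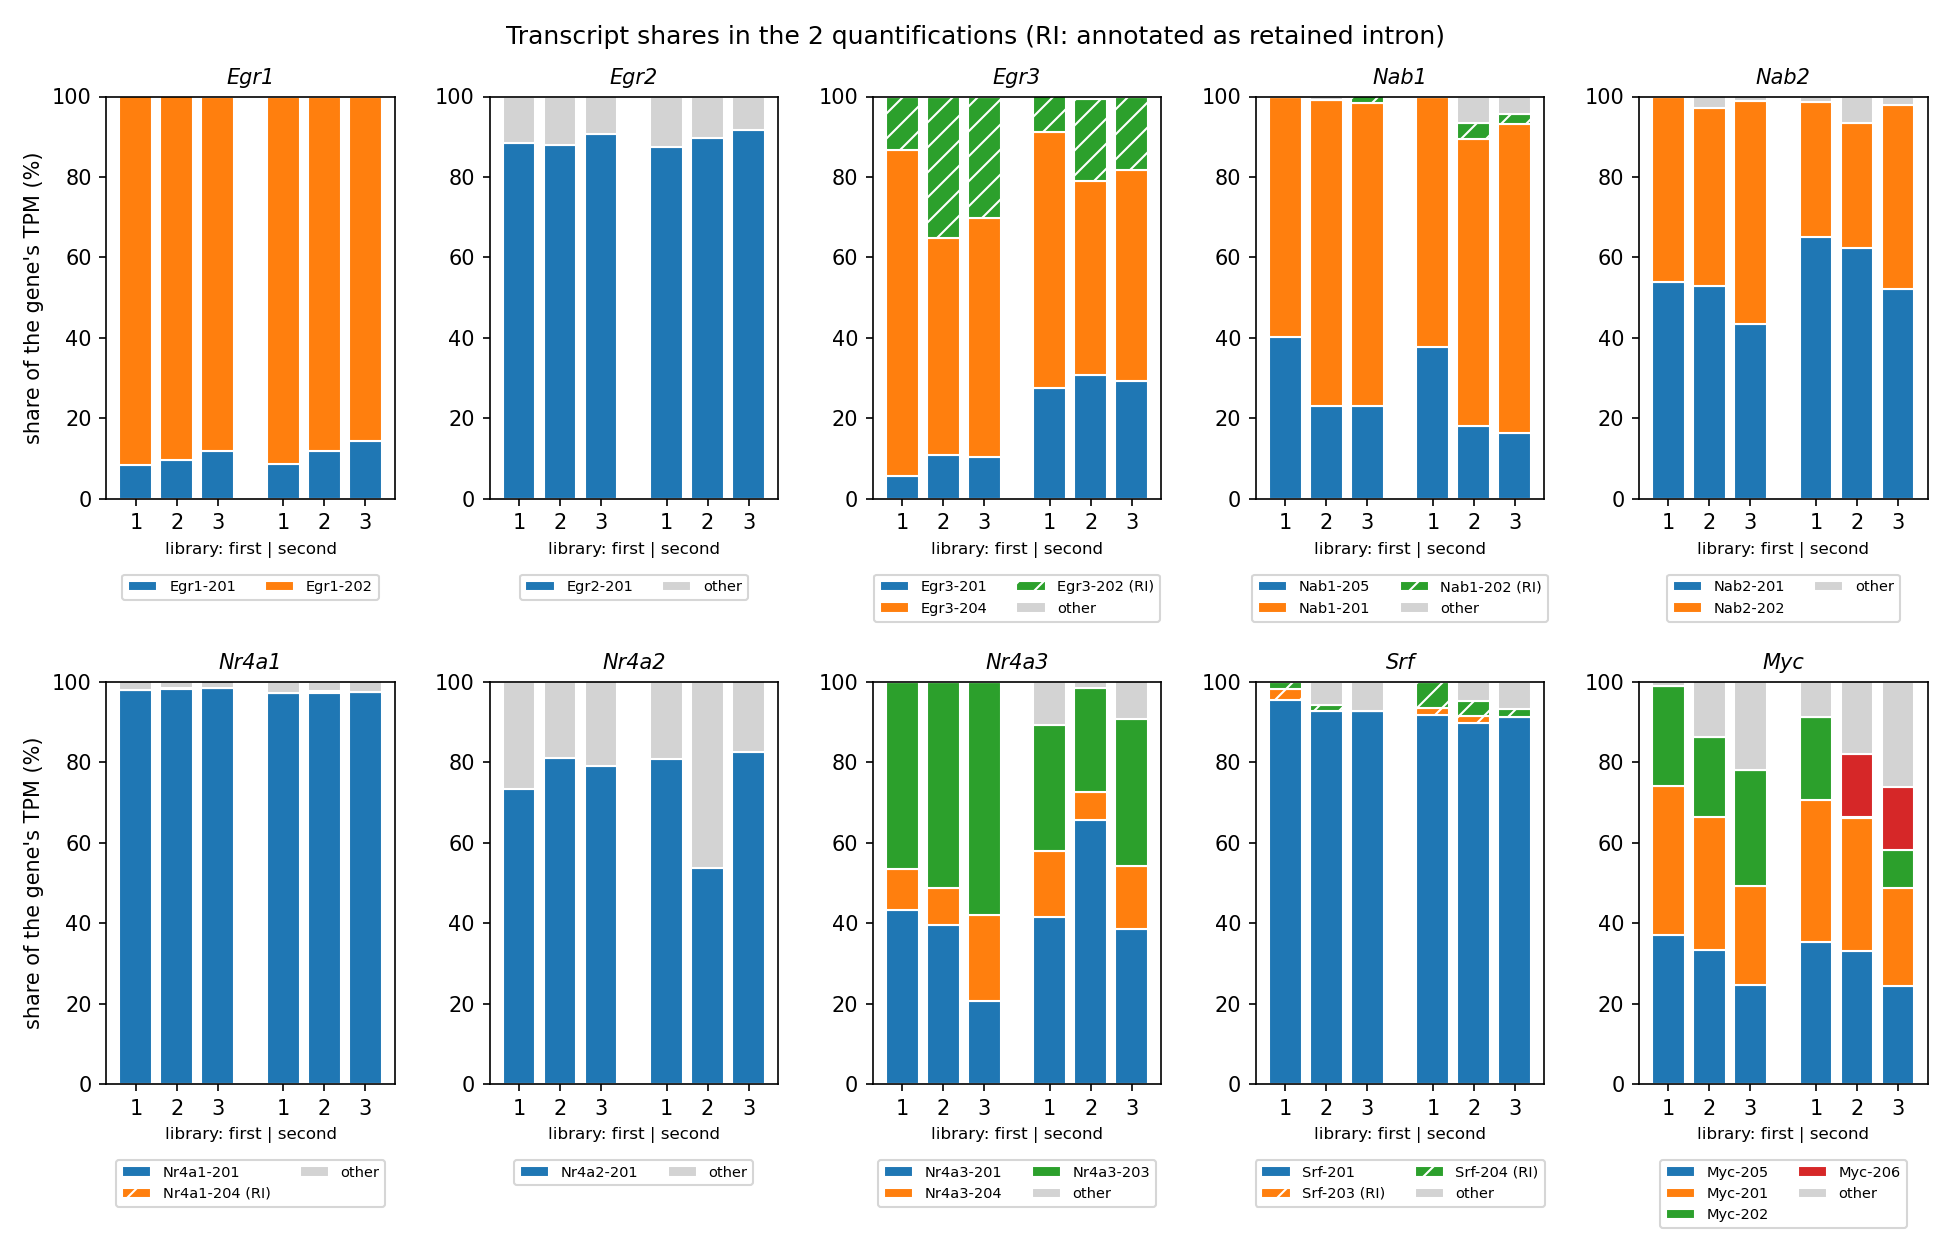
Share of each gene's TPM by transcript, in percent, for libraries 1 to 3 in the first (left bars) and second (right bars) quantification. Hatched parts are annotated as retained intron, and that of Egr3 is smallest in library 1, while Nr4a1 consists almost wholly of Nr4a1-201.

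Gene structure and the 3′ UTR were read from the annotation, from which the rule that chose the genes took nothing. In the highest transcript of each gene, 4 of the 10 (Egr1, Egr2, Egr3 and Myc) had 3 exons or fewer, beside 12.2% of 9119 protein-coding genes that reached 1 TPM in each library. The pentamer ATTTA, the core of the AU-rich elements at which decay factors act, was in the 3′ UTR of all 10, beside 65.9% of 8971 such genes with a 3′ UTR, and 3 or more copies were in 7 of the 10, beside 33.9%. Numbers of pentamers grow with length: the 3′ UTRs ran from 442 bases in Myc to 3095 in Nr4a3, with a median of 929 over the genes compared, and the density was highest in Nr4a1, at 5.52 per kilobase. The longer element TTATTTATT was found in Nab2-201 and Srf-201, beside 6.80% of genes, and these windows show it in capitals, in the alphabet of the genome.
Nab2: gtacagtagaTTATTTATTttgttatttt
Srf: acggcaccacTTATTTATTgttgcctttt

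The partners of these factors were mostly present. Of the 6 genes in the list of Nr4a receptors and retinoid X receptors, 5 reached 1 TPM in each library: Rxra stood at 17.0 ± 2.13 TPM and Rxrb at 7.84 ± 1.35 TPM, both above Nr4a2 and Nr4a3, and Rxrg had 0 counts. Of the 7 genes of Srf and its cofactors, 6 did. The actin-regulated coactivator Mrtfa (28.8 ± 8.09 TPM) and the ternary complex factor Elk4 (16.0 ± 2.04 TPM) were higher than Srf in every library. Mrtfb, also an actin-regulated coactivator, stood at 11.6 ± 2.54 TPM, above Srf in mean but below it in library 2. The cardiac and smooth muscle cofactor Myocd had 0 counts. Among 13 CREB factors and ERK, MSK and RSK kinases, which act upstream of these promoters, 12 reached 1 TPM, with Mapk3 (56.3 ± 12.6 TPM) and Rps6ka3 (29.1 ± 6.63 TPM) the highest. The edgeR test called 0 genes in each of these lists, beside the 1.66% of all genes. At an unadjusted p under 0.05 it marked only Nr4a2 and Srf in them, beside 6.42% of all genes.

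In the Myc-Max network, 10 of 14 genes reached 1 TPM. Mxd1, a repressor that competes with Myc for Max, stood at 55.8 ± 23.0 TPM. Max, the obligate partner of Myc, stood at 41.4 ± 16.5 TPM, and both were above Myc in every library. The repressor Mnt, at 15.3 ± 3.46 TPM, was above Myc in mean but below it in libraries 2 and 3. Mycn had 0 counts. Mxd1 was lowest in library 2, at 8.49, 7.81 and 8.63 log2 CPM (edgeR goodness of fit, adjusted p = 0.236). All 10 known Myc targets reached 1 TPM, with a median of 30.3 TPM, and the highest were the lactate dehydrogenase subunit Ldha (124 ± 13.1 TPM), nucleophosmin Npm1 (110.2 ± 25.4 TPM) and the polyamine enzyme Odc1 (68.6 ± 11.0 TPM). Odc1 was at 7.27, 8.09 and 7.30 log2 CPM (edgeR goodness of fit, adjusted p = 0.0522), high only in library 2. Of the 10 genes tested in each list, the edgeR test called 0, beside 1.66% of all genes. At an unadjusted p under 0.05 it marked 2 of 10 in the first (Mxd1 and Mlx) and 1 of 10 in the second (Odc1), beside 6.42%.

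Known Srf targets were listed in 2 arms, whose levels were not tested against each other. All 9 immediate early genes of the list reached 1 TPM, with a median of 195 TPM. The list includes Egr1, Egr2, Egr3 and Nr4a1, and its 5 other genes had a median of 286 TPM. Junb (570.0 ± 70.9 TPM), the antiapoptotic Mcl1 (329 ± 38.5 TPM) and Fos (286 ± 61.6 TPM) were the highest beside Egr1. Fosb, an AP-1 subunit, was the only gene of the 8 lists that the edgeR test called, at 8.19, 8.13 and 6.97 log2 CPM (adjusted p = 6.37e-04), low in library 3. That was 1 of the 9 genes of its list, beside 1.66% of all genes, and at an unadjusted p under 0.05 the edgeR test marked 3 of the 9 (Fosb, Fos and Egr3), beside 6.42%. Of the 10 cytoskeletal genes, with a median of 8.58 TPM, 6 reached 1 TPM, led by Actb (2466 ± 512 TPM), Actg1 (830.1 ± 33.4 TPM) and the actin crosslinker Flna (69.9 ± 8.70 TPM), and the smooth muscle genes Myl9, Tagln, Acta2 and Cnn1 stayed under 1 TPM. Summed over the list, the cytoskeletal arm was the higher, with 4047, 3080.0 and 3091 TPM beside 2368, 1869.9 and 2068 for the early arm. Of the 7 cytoskeletal genes tested, 0 were called, beside 1.66%, and at an unadjusted p under 0.05 only Srf itself was marked, beside 6.42%. All 7 had their highest log2 CPM in library 2, Tagln with only 16, 27 and 23 counts. So did 4 of 6 tested genes of Srf and its cofactors, 6 of 10 known Myc targets and 4 of 9 early genes. In the remaining lists it was 3 of 13 CREB factors and kinases and 2 of 10 tested Myc-Max genes. It was also 2 of 6 tested genes in the Egr list and 1 of 5 in the Nr4a list. The share over all genes tested is not given here, so this is not shown to be particular to the arm. The nuclear RNAs were highest in the same library, and their part in this pattern was not tested.

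**Figure D5:**
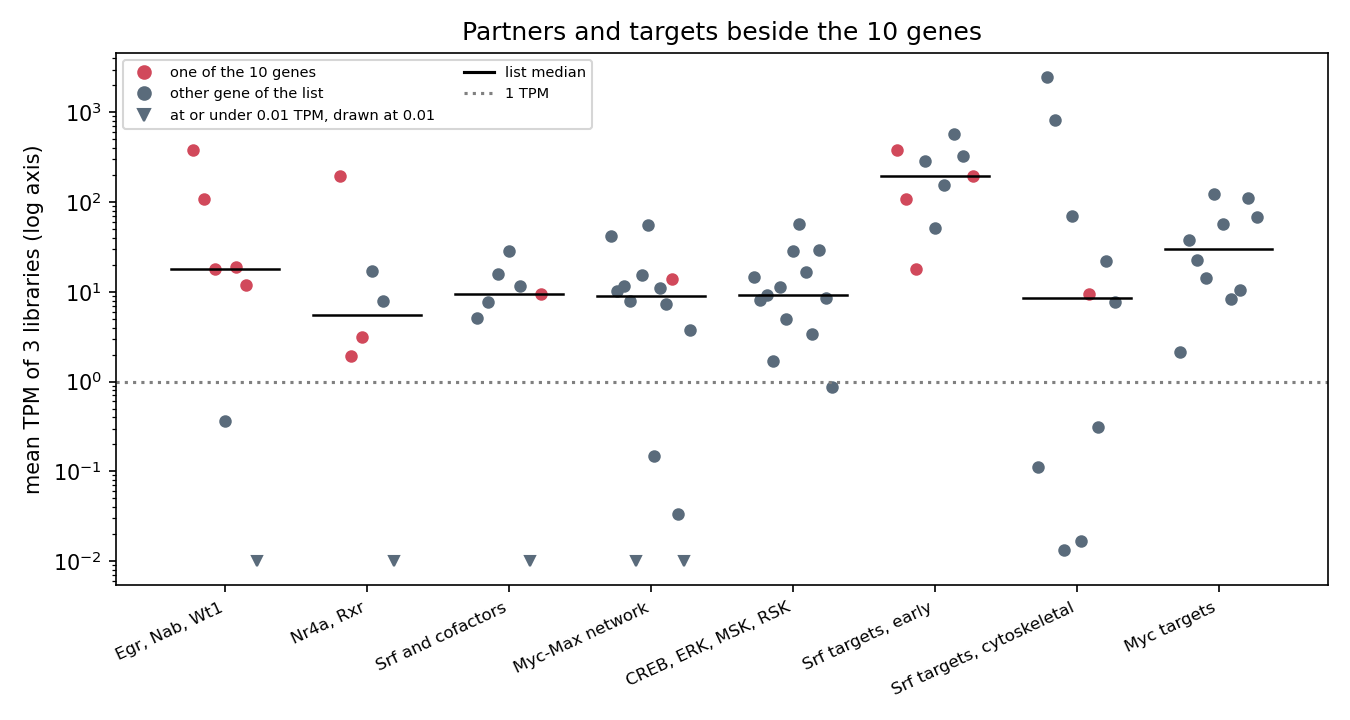
Mean TPM over the 3 libraries, on a log axis, of every gene in the 8 lists of partners and targets, with the 10 genes in red and the list median as a line. Genes at or under 0.01 TPM are drawn at 0.01. The list of early Srf targets, which includes Egr1, Egr2, Egr3 and Nr4a1, has the highest median, 195 TPM.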

How the data were processed

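For each of the 3 libraries the authors deposited, per the file headers and the notes with each library, a gene and a transcript table of the layout of RSEM (the first quantification) and a transcript table of the layout of kallisto (the second), against mm10 with GENCODE M21. The authors made the expected counts (estimated reads) and the TPM library by library. Tool names, versions and strand setting: not given in the sources used here. The second quantification was summed over the transcripts of each gene. Rows that name no gene, mostly phiX174, held 0.365%, 0.162% and 0.0200% of expected counts in libraries 1, 2 and 3 and were left out.

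Levels, within-library log2 ratios and transcript shares were described and not tested, since there is 1 group. Variation was tested with edgeR 4.0.16 (R 4.3.3) on the expected counts after rounding, with filterByExpr, TMM, the trended dispersion, an intercept model and the chi-square goodness of fit of the residual deviance, Benjamini-Hochberg adjusted over all genes at a threshold of 0.05. A prior count of 0.5 entered log2 CPM. The procedure was tested on simulated data. All else used Python 3.11.15 with numpy 2.4.6, pandas 2.3.3 and, for plots, matplotlib 3.10.9.

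Neighbours in level were called separated where the mean log2 ratio was at least its SD with 1 sign in all libraries. Promoter windows are RefSeq's (GRCm38.p6), for 7 of the 10 genes matched by symbol, without Egr1, Egr3 and Myc. They were searched on both strands for the CArG box (10 bases, an A/T-rich core between fixed ends), the NF-kB site (10 bases) and the motifs spelled out in the report, overlaps allowed. Genes named outside the 10 are, for each list, the 3 highest by mean TPM, those at 0 counts in every library and those called, beside the 3 of the pattern most like the gene with the largest SD. One gene that this rule names is not reported here. Egr4, Mlx, the spread of Mxd1 and Odc1, the overlapping genes, the smooth muscle genes and the nuclear RNAs were named after their values were seen. Transcripts named hold at least 10% of a gene in either quantification or are annotated as retained intron. The 10 genes and the lists were chosen with earlier results of these data known. Alternatives tried were the second quantification, a protein-coding scale, 5 TPM for 1 TPM, DESeq2 1.42.0 size factors, no filter, a common dispersion, windows of genes at 1 TPM or more, and leaving out each library.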

Additional observations from a re-analysis of the deposited data

How the results depend on the processing

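The number of genes varying between libraries was 203, and 203 with DESeq2 size factors, 221 with no filter on low counts, 298 with a common dispersion and 200 in the second quantification. Leaving out each replicate in turn gave 89 to 132, with fewer samples in the fit. Of the 10 genes, 0 varied under each of the 4 other settings and 0 to 1 without a replicate (Srf, adjusted p = 0.0213 by edgeR's goodness of fit without replicate 1). At an unadjusted p under 0.05, 3 of the 10 were marked, 2 in the second quantification and 1 to 2 without a replicate. The lowest of these came without replicate 2, the library where Srf and Egr3 were highest, and the cause was not tested. At 5 TPM in place of 1 TPM, or in the second quantification, 8 of the 10 were detected. In the second quantification protein-coding genes took a smaller part of the TPM, so 1 TPM was a stricter limit there. Neighbours separated in level numbered 7, 7 in the second quantification and 7 to 8 without a replicate. The mean TPM of all 10 genes moved with the quantification and with the scale. The unseparated log2 ratio of Nab1 over Egr3 turned from 0.06 to -0.16 in the second quantification and to -0.16 without replicate 1, and the deviation of Nab1 in library 1 from 0.03 to -0.01 on the protein-coding scale. The highest transcript of Nr4a3 differed between the quantifications. No paired analysis was possible because there is 1 group. Depth limits Nr4a2 most, with 388, 281 and 227 counts.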

Other observations

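The spread of the ratio of 2 genes over the libraries was computed for all 45 pairs of the 10 genes, after the constant ratio of Egr1 to Nr4a1 had been seen. The smallest SD of a log2 CPM ratio was that of Egr1 and Nr4a1, at 0.0385, followed by Egr2 and Nab2 at 0.0667, Egr1 and Nr4a3 at 0.0837 and Nr4a1 and Nr4a3 at 0.0977. Egr2 and Nab2 were both lowest in library 1 and highest in library 3. Of the 12230 other genes tested, 287 (2.35%) had a ratio to Egr1 with a smaller SD than that of Nr4a1. These values rest on 3 libraries and are descriptions.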
